A study of Carassius auratus with 6 samples.

Results

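The SLC25 genes encode the carriers that move metabolites across the inner mitochondrial membrane. They were followed here in the liver of crucian carp (Carassius auratus), a fish known for surviving long periods with little oxygen. Members were all rows of the deposited gene table whose name begins with slc25a, ignoring case. There were 127 such rows among 47544 genes, and they carried 42 different SLC25 numbers. Each gene copy was a row of its own, named by the best matching protein of another species, and up to 11 rows shared a number. The libraries came from the liver of wild-type fish after 12 h of hypoxia (3 libraries) and from the liver of wild-type control fish (3 libraries). Strain, age and the oxygen level are not stated in the labels. The labels also do not say whether each library came from a separate fish, so the p-values measure only the spread between these samples, which may be technical. Library totals were 16939689 to 22782649 recovered reads after hypoxia and 15734847 to 17540766 reads in controls.

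Mitochondrial carriers are small membrane proteins that share a common fold, and each exchanges or imports particular substrates. Through them ADP enters the matrix and ATP leaves it, phosphate and carboxylates cross for respiration and biosynthesis, and cofactors, amino acids, carnitine esters and iron reach matrix enzymes. In liver they link mitochondrial respiration with the making of glucose, urea, fat and haem. A separate branch, the calcium-regulated carriers called SCaMC, exchanges ATP-Mg for phosphate and so sets the total amount of adenine nucleotide inside mitochondria. Their part outside the membrane binds calcium. SLC25A25, also called SCaMC-2, belongs to this branch with SLC25A23 and SLC25A24.

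All 127 rows were found in the goldfish reference gene table, where 120 are protein coding and 7 are pseudogenes. A mean of at least 1 normalized count over the 6 libraries was required for a test, and 119 rows passed it. The other 8 had a mean below 1, among them single copies of SLC25A1, SLC25A3, SLC25A20, Slc25a23, Slc25a45 and SLC25A53 and 2 copies of SLC25A22. A normalized count is the number of reads of a row divided by the size factor of its library. It is not divided by gene length, so levels are compared between groups for the same row and not between rows. Crucian carp carry a duplicated genome, and how the counting divided reads between near-identical copies is not known. Levels of single copies are therefore uncertain where copies are alike. Log2 changes are hypoxia minus control on log2 of the normalized count plus 1, given ± SE. Tests were made with limma, p-values were adjusted by Benjamini-Hochberg over all 41045 tested genes, and a row is said to have risen or fallen at an adjusted p under 0.05.

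Hypoxia livers carried far more SLC25A25 transcript than control livers, and this was the only SLC25 gene called with limma in all 6 libraries. Both copies named slc25a25a rose. They made up 2 of 119 tested rows, or 1.68%, against 1.83% of all tested genes called higher and 2.24% called in either direction. With limma 0 rows fell, against 0.417% of all tested genes called lower, although 12 of the 119 had an unadjusted p under 0.05 and a change below 0. With edgeR 0 SLC25 rows fell, against 0.404% of all tested genes, and with DESeq2 2 fell, against 2.59% of all tested genes. The share of SLC25 rows called was near that of all genes.

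The copy slc25a25a 113052745 had 42932, 19835 and 43128 normalized counts in the hypoxia livers, against 115, 187 and 288 in the control livers. Every hypoxia library lay above every control library, and the lowest of them, hypoxia replicate 2, still exceeded the highest control many times over. The means were 35298 ± 13392 and 197 ± 86.8 (SD, n = 3 each), a ratio of 179. The log2 change was 7.49 ± 0.42 (adjusted p = 7.1e-05 with limma), which ranked 15 among all tested genes by p. These are bulk samples, in which a change in the cells present and a change of RNA per cell cannot be told apart.

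The second copy, slc25a25a 113106958, had 7862, 3359 and 6559 normalized counts in hypoxia livers, against 422, 496 and 501 in control livers. Its groups did not overlap either, and hypoxia replicate 2 was again the lowest of the hypoxia libraries. Means of 5927 ± 2317 and 473 ± 44.4 gave a ratio of 12.5 (SD, n = 3 each). This corresponded to a log2 change of 3.56 ± 0.33 (adjusted p = 0.0011 with limma), at rank 75. Both calls held in all 15 alternative fits that kept the copies apart. There the change of copy 113052745 ranged from 7.15 to 7.86 and that of copy 113106958 from 3.31 to 3.93.

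The share of slc25a25a reads that each copy supplied differed between the groups. These are shares of reads and do not say which copy had more transcripts. Copy 113052745 supplied 84.5%, 85.5% and 86.8% of the slc25a25a reads in hypoxia livers, against 21.5%, 27.4% and 36.5% in control livers. Within each library, the log2 level of copy 113052745 minus that of copy 113106958 was 2.45, 2.56 and 2.72 after hypoxia and -1.86, -1.40 and -0.80 in controls. The changes of the copies thus differed by 3.93 ± 0.32 on the log2 scale (exact permutation test over the libraries, two-sided, p = 0.1, the smallest that 3 against 3 allows). Adjusted over the 6 pairs of SLC25A25 copies that were compared, the p was 0.12.

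The 2 other copies, which best matched SCaMC-2 under the plain name slc25a25, did not share the rise. Copy slc25a25 113049263 had 28.4, 42.1 and 46.4 normalized counts in hypoxia livers, against 90.1, 64.7 and 73.1 in control livers. Its change was -0.96 ± 0.34 (adjusted p = 0.18), with all hypoxia libraries below all controls. Copy slc25a25 113075041 had 50.8, 28.3 and 24.4 after hypoxia, against 50.6, 42.8 and 72.1 in controls. Here the groups overlapped (log2 change -0.70 ± 0.41, adjusted p = 0.39). The changes of these copies differed from that of slc25a25a 113052745 by 8.45 ± 0.68 and 8.19 ± 0.50, and from that of slc25a25a 113106958 by 4.52 ± 0.56 and 4.26 ± 0.40. Each of these 4 differences had the smallest exact permutation p the design allows, 0.1, and an adjusted p of 0.12. Between the plain slc25a25 copies the difference was -0.26 ± 0.58 (exact permutation p = 0.8).

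**Figure D1:**
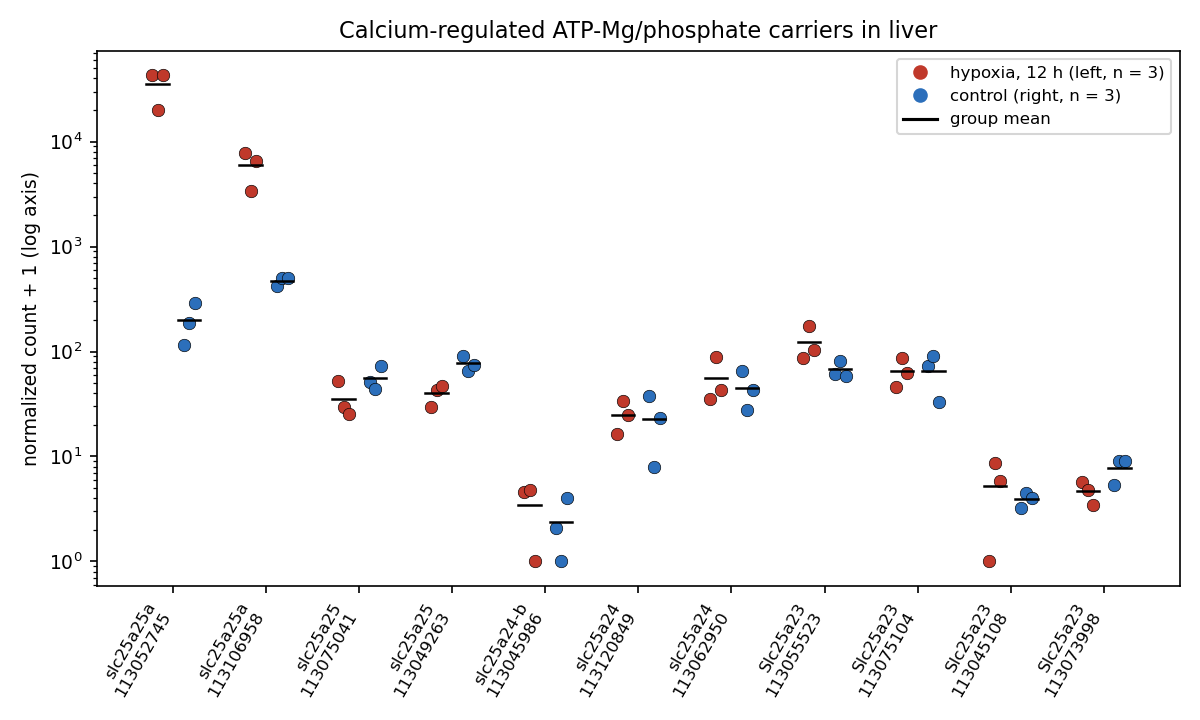
Normalized count plus 1 on a log axis for the 11 tested rows of the calcium-regulated ATP-Mg/phosphate carriers, hypoxia at left (red) and control at right (blue) of each row, with points for single libraries (n = 3 each) and black bars for group means. The 2 slc25a25a copies stand above their controls, by 179 and 12.5 times in the means, and the points of most other rows overlap.

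The other SCaMC genes gave smaller values. Slc25a23, or SCaMC-3, had 4 tested copies, with log2 changes of -0.74 to 0.80 and 0 called. The copy Slc25a23 113055523 had 86.2, 175 and 102 normalized counts in hypoxia livers, against 60.4, 80.9 and 58.1 in control livers, a change of 0.80 ± 0.34 (adjusted p = 0.25). All of its hypoxia libraries lay above all controls. The 3 tested rows named slc25a24, or SCaMC-1, had changes of 0.27 to 0.46, all within the spread between libraries.

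Reads of the whole SLC25 set made up 0.414% to 0.519% of each hypoxia library and 0.220% to 0.273% of each control library. The slc25a25a copies took 51.2%, 42.1% and 51.6% of all SLC25 reads in hypoxia livers, against 1.41%, 1.24% and 1.73% in control livers. Exact 95% binomial intervals, which cover counting error only, ran from 41.7% to 51.9% over the hypoxia libraries and from 1.14% to 1.86% over the controls. The summed normalized count of all SLC25 rows was 83588 ± 24671 after hypoxia and 46307 ± 8629 in controls (SD, n = 3 each). Without the slc25a25a copies the sums were 42363 ± 9059 and 45637 ± 8565, which differed by less than their spread. These are shares of reads and not of transcripts, since the values are not divided by length.

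**Figure D2:**
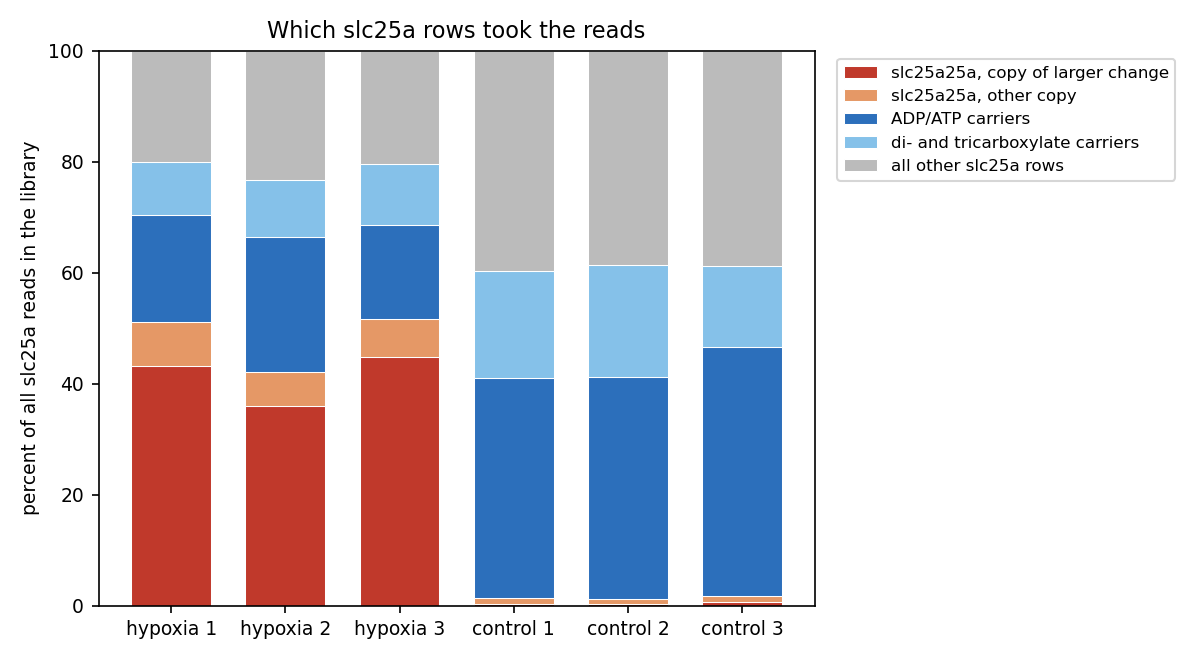
Percent of all SLC25 reads in each library taken by the slc25a25a copy of larger change, the other slc25a25a copy, the ADP/ATP carriers, the di- and tricarboxylate carriers and the remaining rows, with the hypoxia libraries at left and the controls at right. The slc25a25a copies together hold 42.1% to 51.6% after hypoxia and 1.24% to 1.73% in controls.

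Over the 119 tested rows the median log2 change was -0.21, against 0.00 over all 41045 tested genes, and 74 rows, or 62.2%, had a change below 0, against 49.8% of all tested genes. This lean depended on counting each copy as a row. With copies summed by name, 23 of 44 names, or 52.3%, had a change below 0, against 53.2% over the whole table, and the median was -0.07 against -0.05. With 1 library left out, the share of SLC25 rows below 0 ran from 56.8% without hypoxia replicate 2 to 69.2% without hypoxia replicate 3. The medians of the SLC25 rows in those fits were -0.13 and -0.28. Over all genes the shares below 0 there were 51.4% and 49.8%. A change of more than 1 in either direction was found in 20 rows, or 16.8%, against 26.7% of all tested genes. At an unadjusted p under 0.05, 9 rows were higher and 12 lower, which is 7.56% and 10.1% of those tested. The same holds for 10.2% and 8.41% of all tested genes, 18.6% in either direction. Groups did not overlap in 7 rows with higher hypoxia values and in 12 with lower ones, or 5.88% and 10.1%, against 12.4% and 12.2% of all tested genes, 24.6% in either direction. Copies of one gene share sequence, so these rows are not independent of each other.

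**Figure D3:**
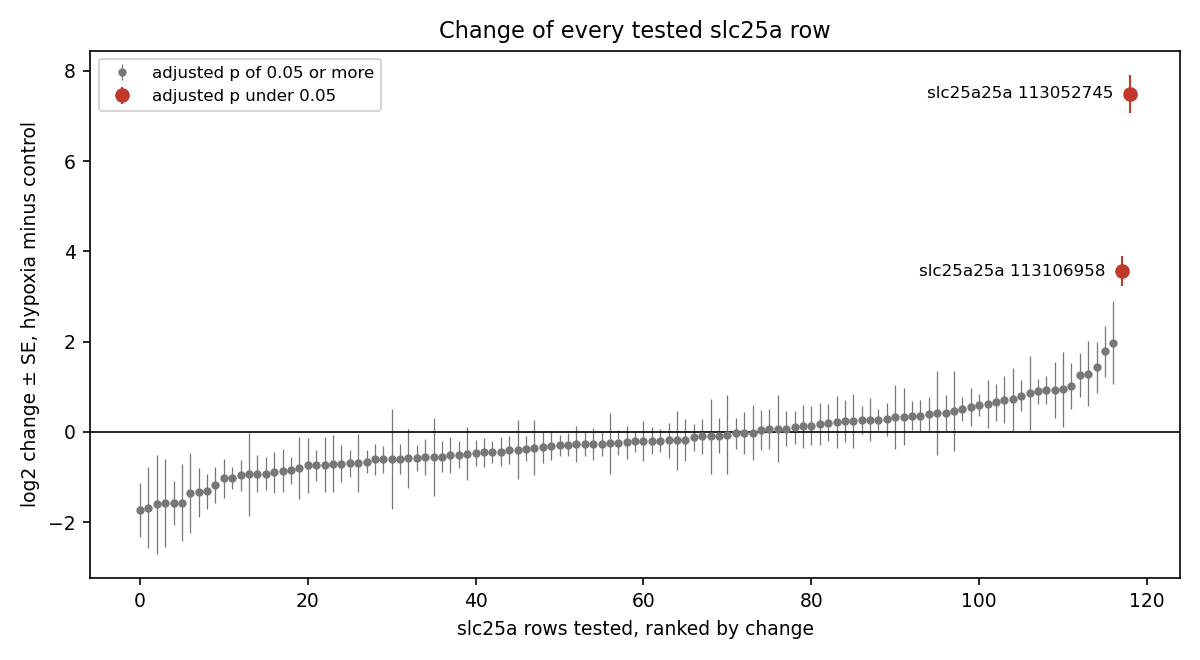
Log2 change (hypoxia minus control) with its SE for the 119 tested SLC25 rows, ranked, with red for an adjusted p under 0.05. The 2 slc25a25a copies at 7.49 and 3.56 stand apart, and the remaining 117 rows run from -1.72 to 1.98.

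The ADP/ATP carriers exchange the nucleotides of oxidative phosphorylation and had 0 of 4 rows called. The row with the highest control reads, SLC25A6 113113951, had 16046, 11451 and 13815 normalized counts in hypoxia livers, against 12257, 18409 and 16656 in control livers. The groups overlapped, with a change of -0.19 ± 0.40 (adjusted p = 0.83). The other copy, SLC25A6 113057772, was at 2988, 1966 and 2539 after hypoxia and 2793, 3713 and 3831 in controls (-0.47 ± 0.28, adjusted p = 0.41). SLC25A4 113108146, a pseudogene in the reference, was near 0, at 0, 3.06 and 1.63 after hypoxia and 1.1, 6.94 and 1.0 in controls. SLC25A4 is the ADP/ATP carrier of heart and skeletal muscle in mammals. The phosphate carrier SLC25A3 supplies phosphate for ATP synthesis. Its copy SLC25A3 113043185 had 1036, 896 and 1084 normalized counts in hypoxia livers, against 1336, 1066 and 2449 in control livers (-0.60 ± 0.32, adjusted p = 0.36). The groups overlapped, and 0 of the 3 tested SLC25A3 rows was called.

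Among carriers of carboxylates, which export citrate for fat synthesis and exchange malate, succinate and oxoglutarate, 0 of 18 tested rows was called and the median was -0.20. The citrate carrier Slc25a1 113099989 had 4187, 2596 and 5065 normalized counts after hypoxia, against 3008, 5586 and 2123 in controls (0.21 ± 0.42, adjusted p = 0.82). Copy Slc25a1 113099900 was at 1310.2, 908 and 1624 after hypoxia and 1784, 1137 and 1209 in controls (-0.11 ± 0.30, adjusted p = 0.87). In both rows the groups overlapped. The smallest p of the class belonged to a copy with few reads, Slc25a1 113054224. It was at 5.91, 17.6 and 10.6 after hypoxia and 41.8, 25.4 and 20.02 in controls (-1.33 ± 0.55, adjusted p = 0.24), with all hypoxia libraries below all controls. The dicarboxylate carrier SLC25A10 113081144 was at 1432, 687 and 1343 after hypoxia and 644, 1287 and 892 in controls (0.28 ± 0.36, adjusted p = 0.72).

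Carriers of glutamate and aspartate had 12 tested rows with a median of 0.06 and 0 called. SLC25A22, which imports glutamate with a proton, had 9 tested copies, whose changes ran from -1.60 to 0.90. The copy SLC25A22 113050281 had 548, 448 and 332 normalized counts in hypoxia livers, against 269, 179 and 260.2 in control livers. Its groups did not overlap, and the change of 0.90 ± 0.28 was not called (adjusted p = 0.14). The malate-aspartate shuttle carrier Slc25a12, also called aralar, had 2 copies with changes of -0.41 and -0.19, and the liver form of that carrier in mammals, SLC25A13, had 1 row with a mean near the filter.

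Among the carnitine and basic amino acid carriers, 0 of 20 tested rows was called. The row with the smallest p was SLC25A15 113115320, a copy of the ornithine carrier of the urea cycle. It had 14.2, 26.8 and 24.4 normalized counts in hypoxia livers, against 3.30, 5.78 and 8.01 in control livers (1.78 ± 0.56, adjusted p = 0.14). Its groups did not overlap, and the 4 copies of SLC25A15 spanned -0.80 to 1.78. The carnitine-acylcarnitine carrier SLC25A20, which brings fatty acyl groups into the matrix for oxidation, had 2 tested copies with changes of -0.85 and -0.51.

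Carriers that serve haem and iron did not show a common direction. Mitoferrin-1, slc25a37, brings iron into the mitochondria of developing red cells in zebrafish. Its copy slc25a37 113107449 had 555, 375 and 273 normalized counts in hypoxia livers, against 84.6, 139 and 351 in control livers (1.26 ± 0.49, adjusted p = 0.22). Control replicate 3 overlapped the hypoxia libraries. The second copy, slc25a37 113039677, was at 1261, 336 and 605 after hypoxia and 133, 197 and 495 in controls (1.43 ± 0.56, adjusted p = 0.22), and its groups overlapped too. Mitoferrin-2, slc25a28, the form of other tissues, had 4 copies with changes of -1.02 to -0.21. Its copy slc25a28 113056855 was at 1500.4, 625 and 1160 after hypoxia and 1647, 1445 and 2114 in controls (-0.74 ± 0.35, adjusted p = 0.29), and the groups overlapped. Beside these, the 11 haemoglobin rows of the red cell list summed to 1725, 4149 and 14184 in hypoxia livers, against 2912, 5696 and 830 in control livers. The 3 rows of alas2, which starts haem synthesis in red cells, summed to 63.8, 72.6 and 299 in hypoxia livers, against 286, 173 and 174 in control livers. The 2 rows of slc4a1 summed to 22.4, 46.6 and 70.0 after hypoxia and 78.0, 64.7 and 23.0 in controls. Over the whole red cell list 0 of 19 tested rows was called, 10 were below 0 and the median was -0.03. The part of blood in the slc25a37 values was not tested.

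Among glycine, branched-chain amino acid and glutathione carriers, 0 of 11 tested rows was called and 9 had a change below 0. The row nearest to a call was slc25a39 113042760. SLC25A39 is needed for glutathione import into mitochondria in mammalian cells. This row had 372, 321 and 421 normalized counts in hypoxia livers, against 878, 806 and 597 in control livers. All hypoxia libraries lay below all controls, with means of 371 ± 49.8 and 760.1 ± 146 (SD, n = 3 each). The change was -1.02 ± 0.24 (adjusted p = 0.072 with limma), and DESeq2 called it (adjusted p = 0.0071). Its other copy, slc25a39 113047014, had a change of -0.51, and the 3 copies of the related slc25a40 ran from -0.93 to -0.48.

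Cofactor carriers had 18 tested rows, 14 of them with a change below 0, and 0 called. SLC25A17 113046829, the carrier of peroxisomes, was at 44.9, 40.5 and 70.8 normalized counts in hypoxia livers, against 175, 77.4 and 150.1 in control livers. Its groups did not overlap, and the change was -1.31 ± 0.39 (adjusted p = 0.13 with limma). It was called with DESeq2 (adjusted p = 0.038) and with limma when control replicate 2 was left out (adjusted p = 0.031). All 4 tested rows of the uncoupling type, SLC25A14 and SLC25A27, had a change below 0 and 0 was called. SLC25A27 113062832, which best matched uncoupling protein 4, had 14.2, 25.2 and 45.6 after hypoxia, against 49.5, 99.4 and 95.1 in controls (-1.57 ± 0.49, adjusted p = 0.14). The values of hypoxia replicate 3 and control replicate 1 nearly met.

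Pyrimidine nucleotide carriers, which supply mitochondrial DNA and RNA synthesis, had 8 tested rows, of which 7 had a change above 0 and 0 was called. The smallest p belonged to slc25a33 113065473, at 312, 204 and 450.0 after hypoxia and 79.1, 339.8 and 129 in controls (1.01 ± 0.51, adjusted p = 0.33). Of the less known carriers, slc25a46 113084149, a protein of the outer membrane that shapes mitochondria, was at 99.2, 86.4 and 128 after hypoxia and 153, 165 and 172 in controls (-0.66 ± 0.26, adjusted p = 0.22). There all hypoxia libraries lay below all controls.

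**Figure D4:**
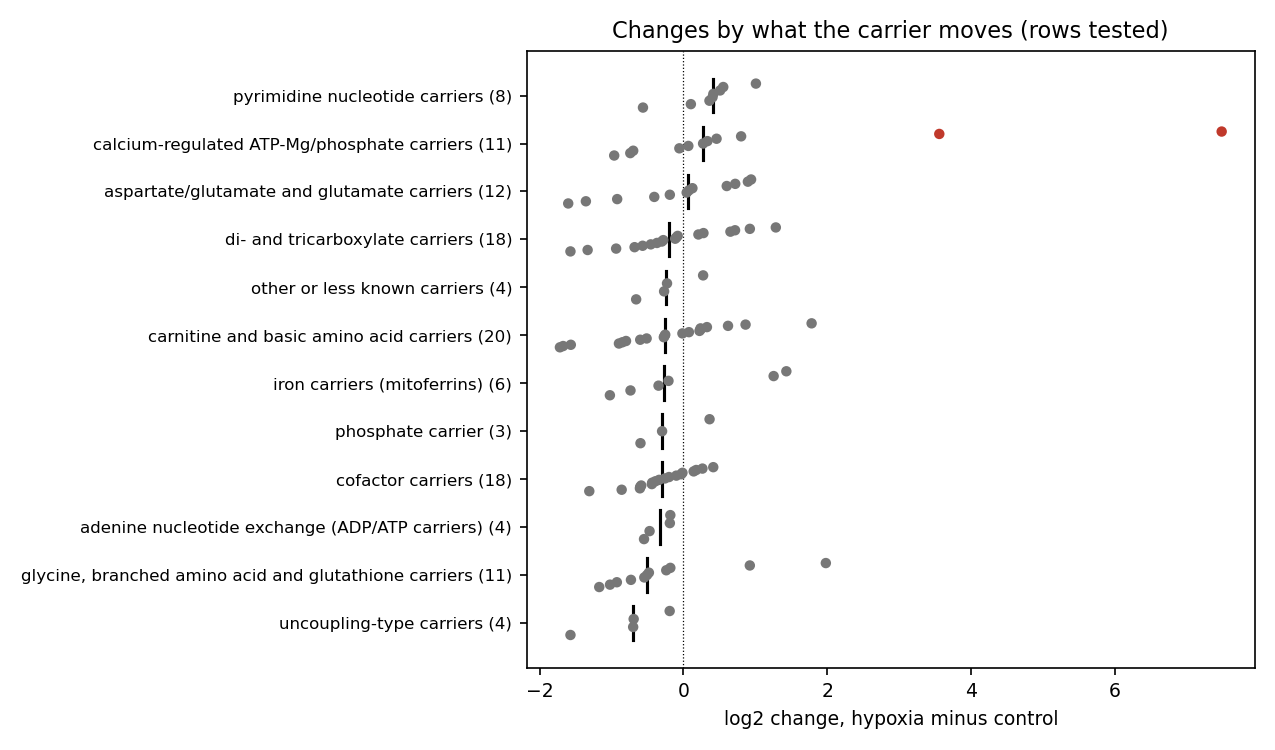
Log2 change (hypoxia minus control) of each tested SLC25 row, grouped by what the carrier moves, with red for an adjusted p under 0.05, black bars for class medians and the number of rows tested in brackets. Class medians run from -0.70 (uncoupling type) to 0.41 (pyrimidine nucleotides), and the 2 called slc25a25a copies lie far to the right of their class.

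The changes of copies of a gene spanned ranges of different width, and only the SLC25A25 copies were tested against each other. Of 34 SLC25 numbers with at least 2 tested rows, SLC25A25 had the widest span, from -0.96 to 7.49. Next came SLC25A15 with a span of 2.58, SLC25A38 with 2.53, SLC25A22 with 2.50 and SLC25A29 with 2.34. Rows of few reads contribute to these spans, and for SLC25A22 and SLC25A29 the lowest row is a pseudogene in the reference. When copies of the same name were summed before the fit, 44 names passed the filter and slc25a25a was the only one called, at 5.87 ± 0.35 (adjusted p = 0.00028). Summed slc25a39 was at -0.91 ± 0.22 (adjusted p = 0.081) and summed slc25a25 at -0.82 ± 0.26 (adjusted p = 0.15).

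Control replicate 2 stood apart from the other controls in several SLC25 rows. In 14 of the 119 tested rows control replicate 2 lay more than 1 above both other controls on the log2 scale, and in 7 it lay that far below them. Together these are 17.6% of the rows, against 23.1% of all tested genes for that library. Over all tested genes the balance there was the reverse, with 3832 that far above and 5659 below. Among the 14 SLC25 rows was slc25a38a 113048642, a glycine carrier that feeds haem synthesis in zebrafish red cells. It had 2664, 630.0 and 2431 normalized counts in hypoxia livers, against 129, 1960 and 260.2 in control livers (1.98 ± 0.92, adjusted p = 0.29). Hypoxia replicate 2 and control replicate 2 make the groups overlap. Without control replicate 2 its change was 3.12 ± 0.63 (adjusted p = 0.030). The carrier slc25a34 113102973 was at 53.2, 52.8 and 62.7 after hypoxia and 16.5, 90.2 and 16.02 in controls. There only control replicate 2 made the groups overlap. Without control replicate 2 slc25a34 113102973 was called at 1.72 ± 0.36 (adjusted p = 0.034). Without that library 5 SLC25 rows were called, the 2 slc25a25a copies, slc25a38a and slc25a34 as higher and SLC25A17 113046829 as lower, beside 5.76% of all genes in that fit. Control replicate 2 was not the only library apart. Hypoxia replicate 2 lay more than 1 below both other hypoxia libraries in 13 of the 119 tested rows and that far above them in 3. Over all 41045 tested genes the balance in that library was also the reverse, with 1678 that far below and 4872 above. The cause of these differences between the SLC25 rows and all genes was not tested. Control replicate 2 also stood apart in marker sums. Vitellogenin and egg coat rows summed to 28405 in it, against 145 and 163 in the other controls and 218 to 1766 after hypoxia. Its exocrine pancreas rows summed to 372, against 120920 and 12616 in the other controls and 50983 to 158117 after hypoxia. The part of these differences in the SLC25 values was not tested.

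**Figure D5:**
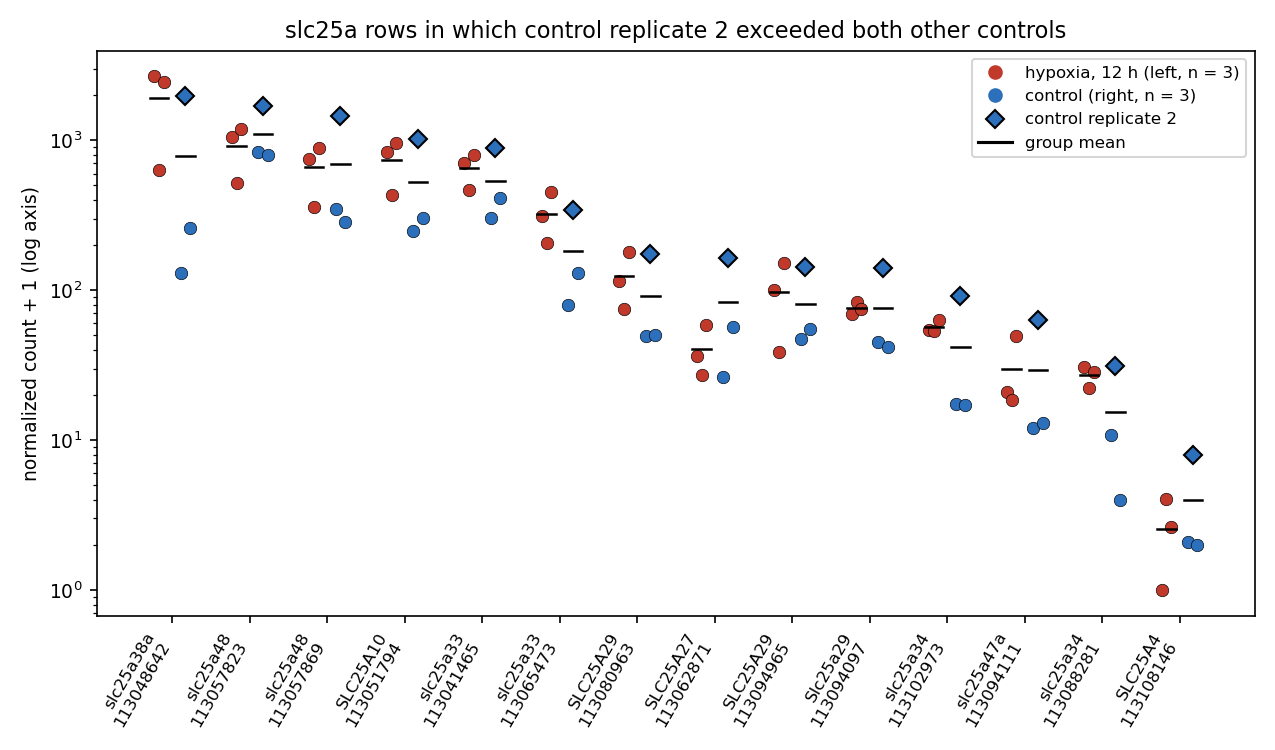
Normalized count plus 1 on a log axis for the 14 tested SLC25 rows in which control replicate 2 (diamond) lay more than 1 above both other controls on the log2 scale, hypoxia at left (red) and control at right (blue), with black bars for group means (n = 3 each). For slc25a38a 113048642 control replicate 2 is at 1960 and the other controls are at 129 and 260.2.

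Marker genes of hepatocytes were abundant in all 6 libraries. Hepatocyte rows, led by the fibrinogen chains FGA, FGB and FGG, summed to 1306489 to 2747391 normalized counts after hypoxia and 1829755 to 2770434 in controls. Of 26 tested hepatocyte rows 3 fell, fabp10a 113115755 and 2 copies of APOA1. For this and the marker lists below, 0.417% of all tested genes were called lower and 1.83% higher. Islet rows summed to 557 to 1708 after hypoxia and 65.9 to 546 in controls, with 0 of 14 tested rows called. These sums did not overlap, 13 of the 14 rows had a change above 0 and their median log2 change was 2.50. Leukocyte rows summed to 4867 to 10762 after hypoxia and 1677 to 6692 in controls, with 0 of 17 called, 15 above 0 and a median of 1.12. Bile duct rows summed to 9660 to 17584 after hypoxia and 9450 to 12926 in controls, with 0 of 17 called, 14 above 0 and a median of 0.50. Endothelial and stellate rows summed to 4322 to 14309 after hypoxia and 4684 to 6832 in controls, with 2 of 32 called higher, 23 above 0 and a median of 0.64. Exocrine pancreas rows, whose sums are given above, had 0 of 25 called, 16 above 0 and a median of 2.31. Muscle rows summed to 2763 to 3564 after hypoxia and 208 to 336 in controls, without overlap. Of 12 tested rows of the muscle list 9 had a change above 0, with a median of 1.22, and 2 were called higher, both copies of mb, the gene of the oxygen-binding protein myoglobin. The 3 mb rows summed to 2637 to 3371 after hypoxia and 41.0 to 213 in controls. The other 14 rows of that list summed to 127 to 252 after hypoxia and 124 to 170 in controls, and of these Ckm 113058449 and atp2a1 113072468 were at 0 in all 3 controls. Islet and muscle sums, the latter mostly mb, were thus higher after hypoxia, as slc25a25a was. So were the medians of the leukocyte, bile duct, endothelial and pancreas rows. The highest leukocyte, bile duct and endothelial sums, 10762, 17584 and 14309, were all in hypoxia replicate 2. In hypoxia replicates 1 and 3 none of these sums exceeded the highest control. Islet and pancreas sums were also highest in hypoxia replicate 2, the lowest hypoxia library for both slc25a25a copies. The hepatocyte sum was lowest in that library, at 1306489, against 2747391 and 2613467 in hypoxia replicates 1 and 3. The part of these cell types in the SLC25 values was not tested.

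Among mitochondrial transport genes outside the SLC25 names, calls came from the pyruvate carrier and the carrier import list. Of 9 tested rows of the pyruvate carrier, which joins glycolysis to the citric acid cycle, 2 fell, against 0.417% of all tested genes. Its median was -0.91, with 8 of 9 rows below 0. Mpc1 113057350 was at 100.4, 52.0 and 93.6 normalized counts in hypoxia livers, against 389, 741 and 375 in control livers (-2.58 ± 0.36, adjusted p = 0.0079). Mpc2 113110000 was at 23.6, 22.9 and 21.2 after hypoxia, against 160.5, 85.5 and 87.1 in controls (-2.19 ± 0.36, adjusted p = 0.018). The carriers named otherwise were copies of ucp2 and MTCH2, with 0 of 9 tested rows called and 7 below 0. Their smallest p belonged to ucp2 113109980 (-0.75 ± 0.27, adjusted p = 0.19) and MTCH2 113051445 (-0.80 ± 0.31, adjusted p = 0.22). Carrier import, by which the small TIM chaperones bring newly made carriers to the inner membrane, had 37 tested rows, 32 with a change below 0 and a median of -0.35. Of these 1 fell, the small TIM gene timm10b 113109803, at 28.4, 27.5 and 35.8 after hypoxia and 87.9, 89.0 and 97.1 in controls (-1.56 ± 0.31, adjusted p = 0.038). TIMM22 113049724, the inner membrane channel that inserts carriers, was at -1.61 ± 0.40 (adjusted p = 0.084).

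Among the remaining lists 0 rows were called with limma. Rows below 0 were 9 of 13 sideroflexin rows, 10 of 13 outer membrane channel rows, 9 of 16 calcium uniporter rows and 14 of 18 shuttle enzyme rows. At an unadjusted p under 0.05 the lower rows of these lists numbered 4, 2, 3 and 5, and the uniporter list had 1 higher row. Of all tested genes 8.41% were lower and 10.2% higher at that threshold. The pyruvate carrier, carrier import, otherwise named carrier and carnitine shuttle lists had 5, 9, 2 and 2 lower rows, of 9, 37, 9 and 18 tested. For the sideroflexins, some of which carry serine, the smallest p were those of SFXN2 113094479 (-2.14 ± 0.53, adjusted p = 0.079) and SFXN2 113070567 (-1.39 ± 0.49, adjusted p = 0.19). The outer membrane channels VDAC2 113052779 and Vdac1 113038197 were at -1.83 ± 0.50 and -0.73 ± 0.31 (adjusted p = 0.11 and 0.25). Of the calcium uniporter, which lets calcium into the matrix, smdt1 113058467 and smdt1 113097584 were at -1.15 ± 0.25 and -0.84 ± 0.28 (adjusted p = 0.055 and 0.16). The malate-aspartate and citrate shuttle enzymes were led by MDH1 113044118 at -1.42 ± 0.31 and MDH1 113044009 at -1.27 ± 0.30 (adjusted p = 0.054 and 0.073). The carnitine shuttle enzymes had 11 of 18 tested rows above 0 and a median of 0.11. Their smallest p belonged to rows below 0. CPT1A 113043584 was at -1.10 ± 0.39 and cpt2 113107223 at -0.56 ± 0.24 (adjusted p = 0.19 and 0.26).

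The 5 genes whose log2 levels followed slc25a25a 113052745 most closely over the 6 libraries were FNIP1 113063842, which encodes a folliculin-interacting protein, 2 copies of the heat shock gene hsp70 (113046943 and 113047268), znf395 113060667 and the glycogen phosphorylase copy Pygm 113105738. Pearson's r was between 0.9972 and 0.9991. The points are 3 hypoxia and 3 control libraries, which differ as groups in slc25a25a, and 1248 of 41045 tested genes had r above 0.9. FNIP1 113063842, for example, was at 871, 752 and 838 in hypoxia livers, against 230, 268 and 293 in control livers. Among SLC25 rows, 2 others had r above 0.9.

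Of 41045 tested genes 3.97% were higher and 2.39% lower at an adjusted p under 0.05 in the authors' deposited table, 6.36% in all. Of the 119 tested SLC25 rows, 2 were higher and 2 lower there. They were the 2 slc25a25a copies as higher and slc25a39 113042760 and SLC25A17 113046829 as lower, with adjusted p of 0.011 and 0.042 for the lower pair in the authors' deposited table. The authors' log2 fold changes in that table were 7.48 and 3.65 for the slc25a25a copies and -1.03 and -1.36 for the lower pair. DESeq2 on recovered reads called the same 4 rows, at 7.48, 3.65, -1.03 and -1.36. Both rest on the same libraries and gave nearly the same changes. The deposited calls are thus not independent of those made with DESeq2.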

How the data were processed

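Liver RNA of 6 libraries was analysed, 3 after hypoxia and 3 controls. Bowtie2 2.2.8 and TopHat2 2.1.1 are named in the submitters' processing notes. The sources used here name no counter, build, annotation or read filter. The deposited signal, named FPKM by the authors, is reads divided by a size factor per library (0.846 to 1.31): 100% of values above 0 were whole multiples of a step per library within 0.01 read, so whole reads were recovered. Each gene also has the authors' deposited log2 fold change and their p-value, raw and adjusted, by a test that is not stated.

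limma 3.58.1 with a mean-variance trend (R 4.3.3) was fitted to log2 of value plus 1 for genes with a mean of at least 1, with no covariate. Adding 1 makes the fold of low genes smaller. edgeR 4.0.16 and DESeq2 1.42.0 on recovered reads, other filters, scalings and left-out libraries were alternatives. The limma and edgeR tests were checked on data simulated with the same dispersion for every gene and no library set apart. DESeq2 was not checked in this way. The check does not cover data with a library such as control replicate 2. Replicate numbers were not treated as pairs.

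Members, role classes and lists were chosen with earlier results of these data known. Named rows were those called, the 10 with most reads, the smallest p of each role class, every SLC25A25 copy, and from each other list the 2 with the smallest p and those called. Rows named beside these, such as slc25a34 and SLC25A20, were chosen after their values were seen. No sequence is printed because the reference used here holds no sequences.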

Additional observations from a re-analysis of the deposited data

How the results depend on the processing

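The 2 calls, both slc25a25a, were unchanged in number under the pseudocounts of 0.5 and 5, no filter, a filter at a mean of 10, quantile normalization, TMM and edgeR. DESeq2 called 4 rows and 2733 genes in all, against 921, and summing copies by name gave 1 name and 400 names and unnamed genes. With 1 library left out, 2 to 5 rows and 322 to 2360 genes were called, and the highest of each came without control replicate 2. Genes called were 322, 413 and 357 without hypoxia replicates 1, 2 and 3, and 521 and 460 without control replicates 1 and 3. Of the 21 named rows, 2 near 0 changed sign in such fits: Slc25a1 113099989 ranged from -0.11 to 0.59 and Slc25a1 113099900 from -0.31 to 0.11. Summed by name, Slc25a1 was at 0.039, against -0.11 for Slc25a1 113099900 and -1.33 for Slc25a1 113054224 alone. Slc25a1 113099989 made up most of the summed counts, with means of 3949 of 5522 after hypoxia and 3572 of 5365 in controls. The cause of the sign changes with 1 library left out was not tested. A replicate block left 2 rows called (adjusted p up to 0.012) and 415 genes. Replicate numbers were not treated as pairs in the main fit. Deviations of same-numbered libraries correlated at -0.07, -0.19 and -0.03. No hypoxia library correlated best with the control of its own number. With 3 libraries per group these correlations cannot exclude a pairing. The 8 rows with a mean normalized count below 1 were tested in the fit with no filter, where 0 of them was called. Few reads limit the precision of low rows.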
